A study of Saccharomyces cerevisiae with 12 samples.

Results

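TIR1, TIR2, TIR3, TIR4, DAN1 and TIP1 of Saccharomyces cerevisiae encode cell wall mannoproteins of the Srp1/Tip1 family, short serine- and alanine-rich proteins. The genes were listed by name, with earlier results of these data known, and all 6 were found among the 6352 genes of each of 7 comparison tables deposited by the authors. The groups held 2 libraries apiece, 12 in all: Δscd6 (SCD6 deletion) in azide and untreated, Δsbp1 (SBP1 deletion) in azide and untreated, and wild type in azide and untreated, all in BY4741, a haploid laboratory strain that both deletions were made in. Cells grew in the rich glucose medium YEPD to an optical density of 0.4 to 0.5, and treated cells then spent 30 minutes in 0.5% sodium azide, which stops respiration at cytochrome oxidase. Both deleted genes encode RGG-motif proteins that bind RNA and hold back translation, and the study asked how the transcriptome of each strain answers azide.

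The proteins carry a signal peptide and a glycosylphosphatidylinositol (GPI) anchor, are mannosylated on serine and threonine, and end up joined to the glucan of the wall. Yeast remodels its wall when oxygen runs out or the temperature drops: the DAN and TIR genes are switched on while the aerobic wall proteins Cwp1 and Cwp2 recede. In air, heme-dependent repression holds the genes down through Rox1, Mot3 and the Tup1-Cyc8 corepressor, and the sterol-sensing activator Upc2 drives them through AR1 sites in their promoters when oxygen is short. TIR1, TIR2 and TIP1 are known as cold-shock genes, TIR1, TIR3 and TIR4 are needed for growth without oxygen, and DAN1 is a textbook example of a gene kept silent in air.

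In the RefSeq R64 assembly every member has a single coding exon. TIR4 (YOR009W) lies at chrXV:344335-345798 on the plus strand, and TIR2 (YOR010C) faces it at chrXV:346195-346950 on the minus strand, with 396 bases between their 3′ ends and the sterol transporter gene AUS1 beyond TIR2. DAN1 (YJR150C) lies at chrX:708811-709707 on the minus strand, next to its relative DAN4. TIR1 (YER011W) is at chrV:175248-176012 on the plus strand, TIR3 (YIL011W) at chrIX:333727-334536 on the plus strand and TIP1 (YBR067C) at chrII:372103-372735 on the minus strand. None of the 6 overlaps an annotated gene. Translated from that assembly, the proteins run from 210 residues in Tip1 to 487 in Tir4, and serine, threonine and alanine make up between 51.3% of Dan1 and 56.1% of Tir3. Tir1 and Tir2 were the most alike pair, identical at 72.2% of 248 aligned residues, and Tir4 and Dan1 the least alike, at 29.8% of 282. No stretch of 50 bases in any of the 6 genes occurred elsewhere in the genome, although 13.0% of such stretches in TIR1 and 20.2% in TIR4 recurred within the same gene.

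Promoter windows are printed for TIR4, DAN1 and TIR1, the members with the widest range of levels over the groups. Each covers 300 bases and ends 100 bases short of the start codon, 5′ to 3′ on the gene's strand, from RefSeq R64: chrXV:343935-344234 (plus) for TIR4, chrX:709808-710107 (minus) for DAN1 and chrV:174848-175147 (plus) for TIR1. Capitals mark matches, on either strand, to the sterol response element (TCGTATA), the AR1 site (TCGTTNAG) or the core of the Rox1 site (ATTGTT).
TIR4: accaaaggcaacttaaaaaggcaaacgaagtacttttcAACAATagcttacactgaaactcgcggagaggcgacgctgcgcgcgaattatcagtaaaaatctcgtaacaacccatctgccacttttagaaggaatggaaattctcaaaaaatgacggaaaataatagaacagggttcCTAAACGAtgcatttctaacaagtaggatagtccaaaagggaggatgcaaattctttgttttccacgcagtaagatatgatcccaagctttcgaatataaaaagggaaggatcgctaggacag
DAN1: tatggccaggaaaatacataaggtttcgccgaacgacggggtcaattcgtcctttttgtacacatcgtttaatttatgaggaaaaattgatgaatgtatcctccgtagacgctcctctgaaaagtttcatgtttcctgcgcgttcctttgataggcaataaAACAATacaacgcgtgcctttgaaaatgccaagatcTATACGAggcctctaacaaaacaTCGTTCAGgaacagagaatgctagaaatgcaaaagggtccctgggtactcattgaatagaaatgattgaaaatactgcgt
TIR1: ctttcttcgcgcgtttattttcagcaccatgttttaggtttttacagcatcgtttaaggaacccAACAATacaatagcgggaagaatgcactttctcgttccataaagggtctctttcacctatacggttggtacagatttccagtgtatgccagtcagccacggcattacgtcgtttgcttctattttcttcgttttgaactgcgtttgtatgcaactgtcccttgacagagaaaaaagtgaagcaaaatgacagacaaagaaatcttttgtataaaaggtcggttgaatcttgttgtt

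TIR4 held 1 AR1 match, read on the strand opposite the gene, and DAN1 held an AR1 match beside a sterol response element. Over 500 bases before the start codon, AR1 matches were found in TIR4 (1) and DAN1 (2) and in no other member, while 5.12% of 6000 promoters of that length held one and 0.333% held 2 or more. The sterol response element was found once in DAN1 and once in TIR3, and in 420 of the 6000 promoters. Every member held at least 1 copy of the Rox1 core, a short motif present in 48.9% of all promoters, and TIR1, TIR4, DAN1 and TIP1 held the TATA box TATAAA, present in 60.5%. DAN4, the neighbour of DAN1, had 1 AR1 match and 1 sterol response element. None of the motifs searched overlapped another in these windows, and a match describes letters, not binding.

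**Figure D1:**
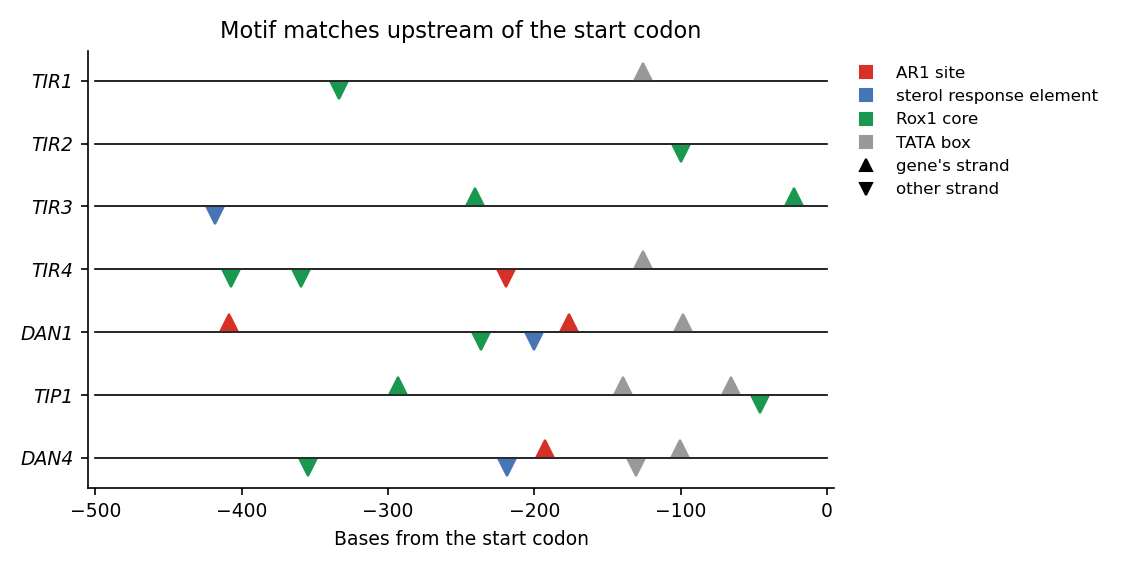
Matches to 4 motifs in the 500 bases before the start codon of the 6 members and of DAN4; the horizontal axis gives bases from the start codon, and triangles point up for the gene's strand and down for the other. AR1 matches stand in TIR4, DAN1 and DAN4, while TIR1, TIR2, TIR3 and TIP1 have none.

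The tables give a mean normalised read count over all libraries, a fold change and a p-value per gene, and values of single libraries were not analysed here. The group means given here were rebuilt from the mean count and the fold changes, so that they carry no SD, and the depth behind them is unknown. The error of a change is the standard error (SE) that the deposited log2 change and its p-value imply; it had a median of about 0.24 over all genes and ran from 0.30 to 0.80 among the members. This takes the deposited p-values as coming from a normal test, which the sources used here do not state, and every SE, interval and difference test rests on that assumption. Whether the paired libraries of a group are separate cultures is not stated, so the p-values cover library-to-library spread and that spread could be technical. The words rose and fell are kept for genes with a Benjamini-Hochberg adjusted p, over all genes, under 0.05. RNA came from whole cultures, so fewer expressing cells and less RNA per cell cannot be told apart. The targeted genes were low in the strains labelled as their deletions: in the authors' deposited table SCD6 kept 4.5% of the wild type value in azide-treated and 1.3% in untreated Δscd6 cells, and SBP1 kept 1.3% in azide-treated and 0.3% in untreated Δsbp1 cells.

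The members spanned a wide range of levels. Per kilobase of gene and averaged over all groups, the normalised count was 15225 for TIP1, 2730 for TIR1, 1421 for TIR3, 366 for TIR2, 224 for TIR4 and 53.8 for DAN1. TIP1 stood highest and DAN1 lowest in all 6 groups. The order between them was not fixed: TIR3 stood above TIR1 in both Δsbp1 groups (1612 against 827 per kilobase in azide, 1459 against 1302 untreated), and TIR4 above TIR2 in untreated Δscd6 cells (386 against 301 per kilobase). These orders between genes were not tested.

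**Figure D2:**
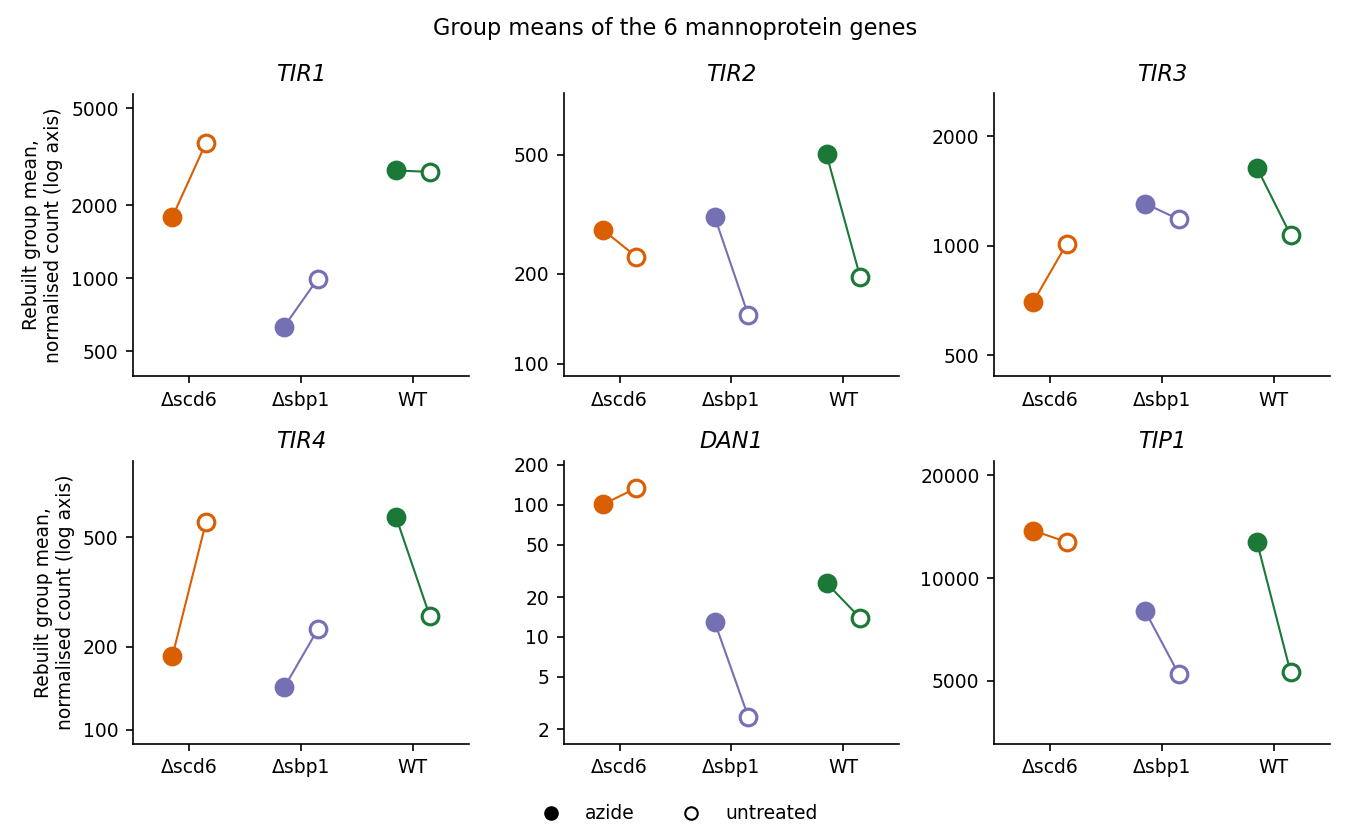
Rebuilt group means (normalised count, log axis with its own range per gene) of the 6 genes in Δscd6, Δsbp1 and wild type (WT) cells; filled points are azide-treated, open points untreated, and no spread is shown because single libraries were not analysed. TIR4 lies lower in azide than untreated in both deletion strains and higher in azide in the wild type; DAN1 is highest in Δscd6 and TIR1 lowest in Δsbp1.

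In the wild type azide raised TIR4, TIR2 and TIP1, and all 6 members had a positive log2 change. Of the 6, 3 rose and 0 fell, where 42.0% of all genes were called, 21.3% up and 20.6% down; the median log2 change was 1.03 over the members and -0.02 over all genes. In Δscd6 cells 0 rose and 2 fell, TIR4 and TIR1, against a background of 42.5% called (22.1% up, 20.4% down), with a median of -0.47 over the members and -0.02 over all genes. In Δsbp1 cells 2 rose, DAN1 and TIR2, and 1 fell, TIR4, where 54.9% of all genes were called (27.5% up, 27.4% down); the medians were 0.38 over the members and -0.02 over all genes. Taken in either direction, these shares of 6 genes lie near the background shares in all 3 strains, and the counts alone do not set the members apart. By direction the wild type calls were all up and the Δscd6 calls all down, which was not tested for so few genes. Scaling the rebuilt group means to equal totals shifts every azide response up by 0.39 in Δscd6, 0.28 in Δsbp1 and 0.15 in the wild type, and changes the split of all called genes. It becomes 2500 up and 527 down in Δscd6 (against 1404 and 1297), 2418 up and 1213 down in Δsbp1 (against 1748 and 1739), and 1708 up and 972 down in the wild type (against 1355 and 1311).

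**Figure D3:**
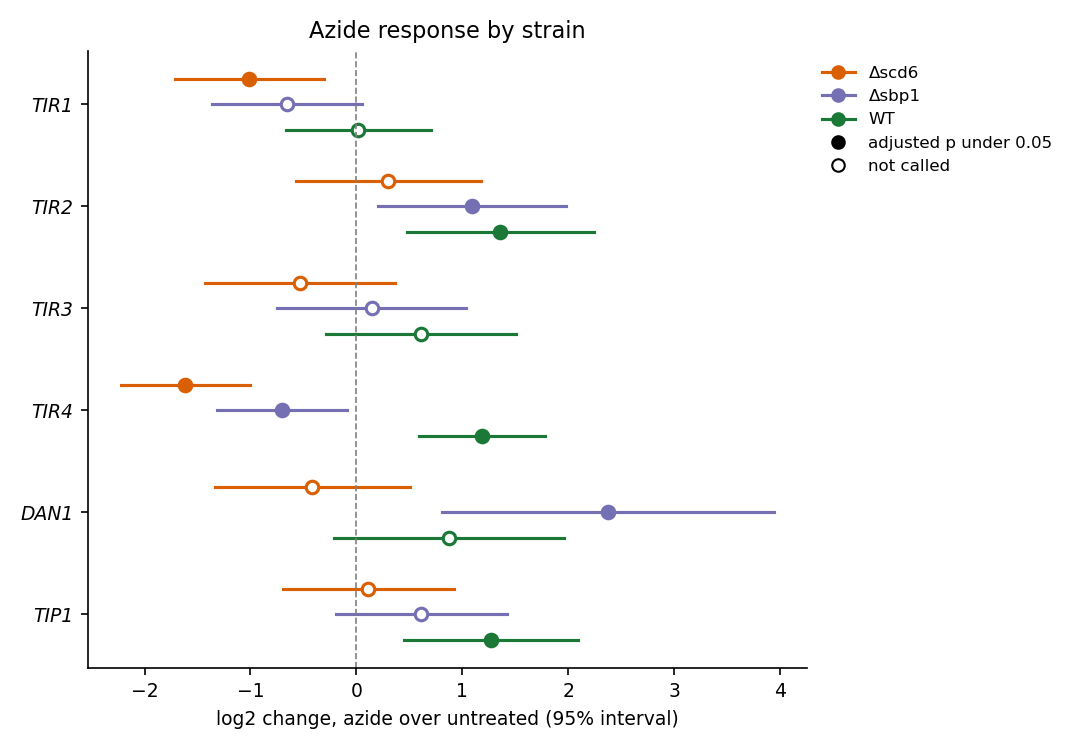
Log2 change of each member, azide over untreated, in Δscd6, Δsbp1 and wild type (WT) cells, with the 95% interval from the implied SE; filled points have an adjusted p under 0.05. All 6 wild type points lie above 0, while the TIR4 points of Δscd6 (-1.62) and Δsbp1 (-0.70) lie below it.

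TIR4, a wall protein needed for growth without oxygen, fell with azide in both deletion strains and rose in the wild type. Its rebuilt mean was 184 normalised counts in azide and 565 untreated in Δscd6 cells, 142 in azide and 231 untreated in Δsbp1 cells, and 590 in azide and 259 untreated in the wild type. Azide-treated deletion cells thus held the lowest levels, and azide-treated wild type cells the highest. In the authors' deposited table the log2 change with azide was -1.62 in Δscd6 (SE 0.31, adjusted p = 2.1e-06), -0.70 in Δsbp1 (SE 0.31, adjusted p = 0.0472) and 1.19 in the wild type (SE 0.30, adjusted p = 4.8e-04). The Δsbp1 fall rests close to the threshold: with equal totals it was -0.42 and did not pass. The wild type rise and the Δscd6 fall passed under every scaling and filter tried.

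The response of TIR4 to azide differed by -2.80 between Δscd6 and the wild type on the log2 scale (95% interval -3.66 to -1.95, adjusted p = 7.2e-08 by the difference test on implied SEs). In Δsbp1 the difference from the wild type was -1.89 (interval -2.75 to -1.03, adjusted p = 0.00299). TIR4 was the only member that passed in either of these difference tests, where 4.13% of 6350 genes (2.17% up, 1.95% down) were called for Δscd6 and 2.22% of 6346 genes (0.552% up, 1.67% down) for Δsbp1. It ranked 23 from the most negative for Δscd6 and 31 for Δsbp1. Between the deletion strains the response was higher by 0.92 in Δsbp1 than in Δscd6 (interval 0.05 to 1.78), which did not pass over all genes (adjusted p = 0.25). Set against the wild type directly, by the authors' deposited table, TIR4 was lower in azide-treated Δscd6 (-1.68, SE 0.31, adjusted p = 1.6e-05) and azide-treated Δsbp1 cells (-2.05, SE 0.31, adjusted p = 4.5e-09). Without azide, the authors' deposited table gave a rise of 1.13 in Δscd6 (SE 0.31, adjusted p = 0.0173) and -0.17 in Δsbp1 (SE 0.31, adjusted p = 0.91). The Δscd6 comparison thus had opposite signs in azide-treated and untreated cells, both past the threshold. These comparisons share groups and are not independent of each other: the fall in azide-treated and the rise in untreated Δscd6 cells enter the same difference.

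**Figure D4:**
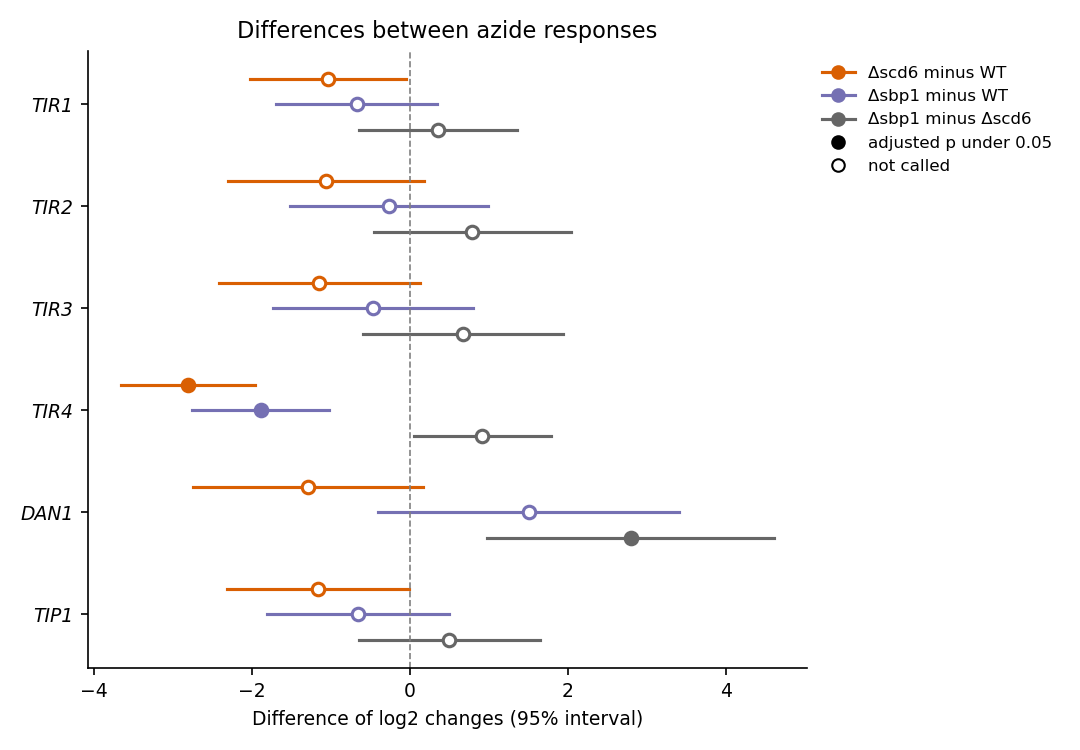
Differences between azide responses (log2 change with azide in the first strain minus that in the second) for each member, with 95% intervals; filled points have an adjusted p under 0.05. The TIR4 differences from the wild type are -2.80 for Δscd6 and -1.89 for Δsbp1, and DAN1 differs between the deletion strains by 2.79.

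TIR2, the convergent neighbour of TIR4 and a cold-shock gene, rose with azide in Δsbp1 and the wild type and passed in neither direction in Δscd6. Its rebuilt mean was 281 normalised counts in azide and 228 untreated in Δscd6, 310 in azide and 145 untreated in Δsbp1, and 501 in azide and 195 untreated in the wild type, so that the azide level was the higher in every strain. By the authors' deposited table the log2 change with azide was 0.30 in Δscd6 (SE 0.45, adjusted p = 0.61), 1.09 in Δsbp1 (SE 0.45, adjusted p = 0.0307) and 1.36 in the wild type (SE 0.45, adjusted p = 0.0083). The Δscd6 response differed from the wild type by -1.06 with an interval of -2.30 to 0.19 (adjusted p = 0.35), which includes 0. TIR2 passed in none of the 4 comparisons of a deletion with the wild type, with changes in the authors' deposited table between -0.84 and 0.22.

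TIR3, needed for growth without oxygen, passed in none of the 7 comparisons. Its rebuilt means were 702 in azide and 1013 untreated in Δscd6, 1306 in azide and 1182 untreated in Δsbp1, and 1636 in azide and 1070 untreated in the wild type. The lowest and the highest were both azide groups, Δscd6 and wild type, and the authors' deposited table gave -1.22 between them (SE 0.46, p = 0.0082 unadjusted and 0.12 adjusted). With azide the log2 change in the authors' deposited table was -0.53 in Δscd6 (adjusted p = 0.36), 0.14 in Δsbp1 (0.80) and 0.61 in the wild type (0.28). The SE of about 0.46 in these comparisons leaves 2-fold changes within the 95% intervals of the azide responses in every strain.

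TIR1, a cold-shock gene also needed without oxygen, was low in Δsbp1 whether or not azide was present. Its rebuilt mean was 633 normalised counts in azide and 996 untreated in Δsbp1, against 2777 in azide and 2740 untreated in the wild type. In Δscd6 cells it was 1785 in azide and 3598 untreated. The authors' deposited table gave TIR1 at 0.23-fold of the wild type in azide-treated Δsbp1 cells (log2 change -2.13, SE 0.37, adjusted p = 4.0e-07) and 0.36-fold in untreated ones (-1.46, SE 0.36, adjusted p = 0.0055). Among all 6352 genes it ranked 25 from the lowest in azide and 31 untreated. For Δscd6 against the wild type the authors' deposited table gave -0.64 in azide (adjusted p = 0.40) and 0.39 untreated (adjusted p = 0.57).

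TIR1 fell with azide in Δscd6, with a log2 change of -1.01 (SE 0.36, adjusted p = 0.0145) in the authors' deposited table, a call lost with equal totals, where the change was -0.62. For the other strains the authors' deposited table gave -0.65 in Δsbp1 (SE 0.36, adjusted p = 0.11) and 0.02 in the wild type (SE 0.35, adjusted p = 0.97). The wild type interval ran from -0.67 to 0.71. Neither difference from the wild type response passed: it was -1.03 for Δscd6 (interval -2.02 to -0.04, adjusted p = 0.23) and -0.67 for Δsbp1 (interval -1.69 to 0.35, adjusted p = 0.56).

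DAN1, the anaerobic gene silent in air, was the rarest member and the one with the widest range, from 2.49 normalised counts in untreated Δsbp1 to 134 in untreated Δscd6 cells. In Δscd6 the rebuilt mean was 100 in azide and 134 untreated, in Δsbp1 it was 13.0 in azide and 2.49 untreated, and in the wild type 25.6 in azide and 13.9 untreated. Both Δscd6 groups stood above all others and the untreated Δsbp1 group below them. In the authors' deposited table DAN1 was 3.93-fold higher than the wild type in azide-treated Δscd6 cells (log2 change 1.98, SE 0.50, adjusted p = 0.0044) and 9.62-fold higher in untreated ones (3.27, SE 0.55, adjusted p = 6.8e-07). It ranked 12 from the highest of 6352 genes in azide and 17 untreated. In Δsbp1 the authors' deposited table gave -0.98 in azide (SE 0.56, adjusted p = 0.21) and -2.48 untreated (SE 0.80, p = 0.0018 unadjusted and 0.0784 adjusted).

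Azide raised DAN1 in Δsbp1 by 2.38 on the log2 scale (SE 0.80, adjusted p = 0.0069) in the authors' deposited table. The untreated group it is set against averaged 2.49 normalised counts, the lowest level of any member. The log2 changes in the authors' deposited table were -0.42 in Δscd6 (SE 0.47, adjusted p = 0.50) and 0.88 in the wild type (SE 0.56, adjusted p = 0.20). The Δsbp1 response exceeded that of Δscd6 by 2.79 (interval 0.98 to 4.61, adjusted p = 0.0478), in a test that called 5.51% of 6243 genes (1.52% up, 3.99% down), and the call was lost with equal totals (2.68). Differences from the wild type response did not pass, at -1.29 for Δscd6 (interval -2.75 to 0.17, adjusted p = 0.32) and 1.504 for Δsbp1 (interval -0.40 to 3.41, adjusted p = 0.46).

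TIP1, the most abundant of the 6 and a major wall mannoprotein, rose with azide in the wild type. Its rebuilt mean was 13786 normalised counts in azide and 12756 untreated in Δscd6, 8006 in azide and 5231 untreated in Δsbp1, and 12756 in azide and 5290 untreated in the wild type. At the deposited scaling, untreated Δscd6 cells were thus at the level that wild type cells had in azide. This match was not tested and does not hold with equal totals. The rebuilt total of all genes, on the log2 scale over untreated wild type, was 0.28 in untreated Δscd6 and -0.15 in azide-treated wild type cells. In the authors' deposited table the log2 change of TIP1 with azide was 0.11 in Δscd6 (SE 0.41, adjusted p = 0.85), 0.61 in Δsbp1 (SE 0.41, adjusted p = 0.20) and 1.27 in the wild type (SE 0.42, adjusted p = 0.0079). Against the wild type, untreated Δscd6 cells gave 1.27 in the authors' deposited table (SE 0.42, p = 0.0024 unadjusted), which did not pass over all genes (adjusted p = 0.0651). The other 3 comparisons with the wild type gave between -0.67 and 0.11 in the authors' deposited table, none past the threshold. The Δscd6 response differed from the wild type by -1.16 (interval -2.31 to -0.01, adjusted p = 0.25).

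Without regard to the azide response, the deletions were also compared with the wild type. In azide, Δscd6 cells had 1 member up (DAN1) and 1 down (TIR4) against the wild type, where 4.31% of all genes were called (2.03% up, 2.28% down), and Δsbp1 cells had 2 down (TIR1 and TIR4), where 21.2% were called (9.29% up, 11.9% down). Untreated, Δscd6 cells had 2 up (DAN1 and TIR4) against a background of 2.52% (1.45% up, 1.07% down), and Δsbp1 cells had 1 down (TIR1) against 1.98% (1.54% up, 0.441% down). With equal totals the split of all called genes became 64 up and 1187 down for untreated Δscd6 (against 92 and 68) and 1001 up and 575 down for azide-treated Δsbp1 (against 590 and 756), and no member's call against the wild type changed. Both deletion strains were compared with the same wild type libraries, so their values are given side by side. A comparison of Δsbp1 with Δscd6 was derived from these tables, with an SE that is an upper bound under the same assumption. DAN1 was lower in Δsbp1 than in Δscd6, with a log2 difference of -2.95 in azide (SE 0.75, adjusted p = 0.0020) and -5.75 untreated (SE 0.97, adjusted p = 7.4e-07). TIR1 was lower as well, at -1.495 in azide (SE 0.51, adjusted p = 0.0417) and -1.85 untreated (SE 0.51, adjusted p = 0.0193), and both calls were lost with equal totals (-1.33 in azide, -1.58 untreated). TIR4 was at -0.37 in azide (adjusted p = 0.72) and -1.29 untreated (adjusted p = 0.12). Of all genes, 9.19% of 6118 (3.38% up, 5.80% down) were called in azide and 1.72% of 6088 (1.17% up, 0.558% down) untreated.

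**Figure D5:**
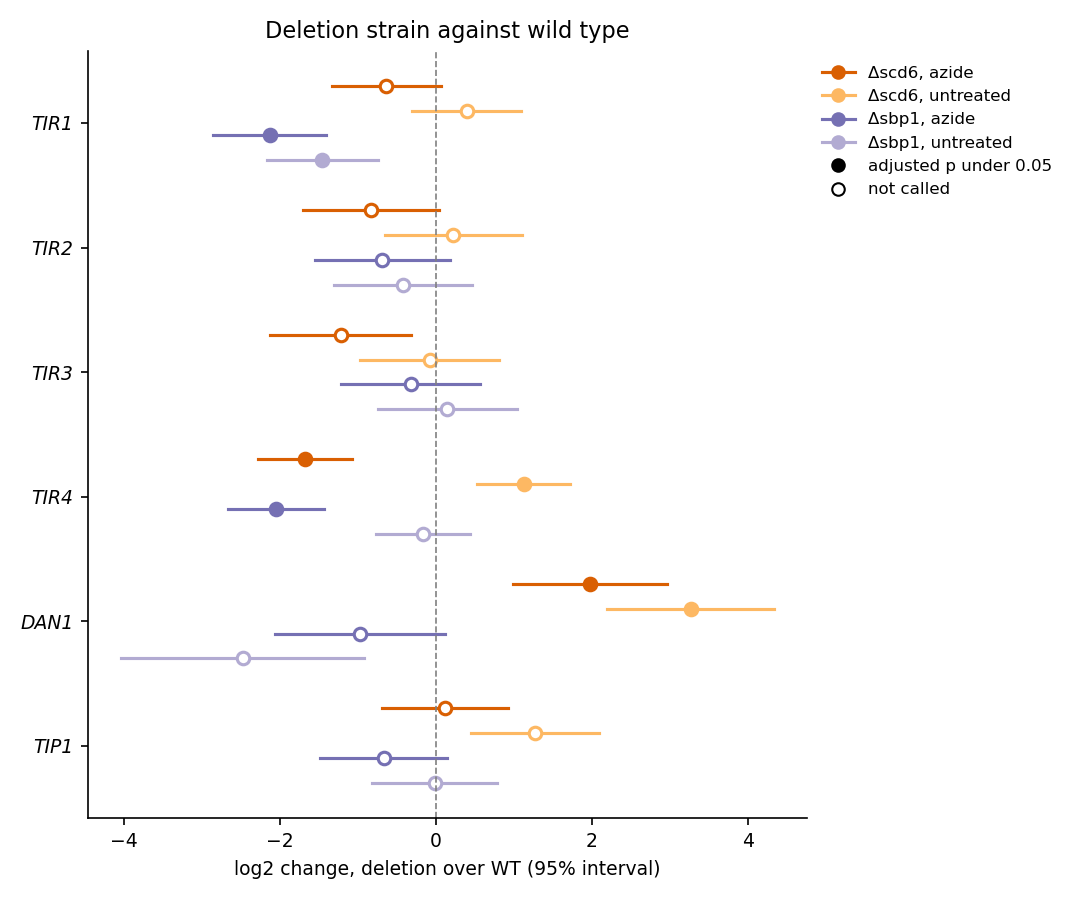
Log2 change of each member in Δscd6 and Δsbp1 over the wild type (WT), in azide and untreated, with the 95% interval from the implied SE; filled points have an adjusted p under 0.05. TIR4 in Δscd6 stands at -1.68 in azide and 1.13 untreated, DAN1 in Δscd6 at 1.98 in azide and 3.27 untreated, and TIR1 in Δsbp1 at -2.13 in azide and -1.46 untreated.

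DAN4, a larger wall protein encoded next to DAN1, was the analysed gene of the DAN2, DAN3 and DAN4 list. Its responses had the same signs as those of TIR4 and TIR1, although not all of them passed. The authors' deposited table gave -0.65 with azide in Δscd6 (adjusted p = 0.0283), -0.30 in Δsbp1 (0.32) and 0.66 in the wild type (0.0248). Its Δscd6 response was lower than that of the wild type, at -1.31 (adjusted p = 0.0129), and its Δsbp1 response gave -0.96 (adjusted p = 0.14). With equal totals the Δscd6 fall of DAN4 no longer passed (-0.26), and its Δsbp1 change was -0.02.

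Seripauperins, the PAU proteins that resemble the amino-terminal part of the TIR proteins, are encoded by near-identical genes whose reads may be shared, and their values are uncertain. Of 10 analysed genes 0 rose and 1 fell in Δscd6, 5 rose and 1 fell in Δsbp1, and 6 rose and 0 fell in the wild type. Their median log2 change was -0.01 in Δscd6, 0.93 in Δsbp1 and 1.14 in the wild type. With equal totals 1 rose and 0 fell in Δscd6, 7 rose and 0 fell in Δsbp1, and 6 rose and 0 fell in the wild type. Of all genes, 22.1% rose and 20.4% fell in Δscd6, 27.5% and 27.4% in Δsbp1, and 21.3% and 20.6% in the wild type. These shares, at the deposited scaling, are the background for the azide counts of this list and each list below. PAU13 was at -0.30 in Δscd6 (adjusted p = 0.67) and rose by 2.35 in the wild type (adjusted p = 4.8e-04) in the authors' deposited table. The difference of these responses was -2.65 (adjusted p = 0.0274), the only one of the 10 that passed in either deletion strain. Untreated Δscd6 cells already held more PAU13 than untreated wild type cells (log2 change 2.38, past the threshold). In azide the 2 strains did not differ past it (-0.27).

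Aerobic wall proteins were counted next. Of 6 GPI mannoproteins of aerobic walls, 1 rose and 2 fell in Δscd6, 1 rose and 3 fell in Δsbp1, and 1 rose and 1 fell in the wild type; with equal totals 0 fell in Δscd6 and 2 in Δsbp1. CWP1 fell in every strain, with log2 changes in the authors' deposited table of -0.91 in Δscd6, -1.85 in Δsbp1 and -0.94 in the wild type; with equal totals the Δscd6 fall did not pass (-0.52). It stood above the wild type in all 4 deletion comparisons, at 1.75 in azide-treated and 1.72 in untreated Δscd6 and at 1.04 in azide-treated and 1.95 in untreated Δsbp1 cells (the authors' deposited table). SPI1, a stress-induced wall protein, was the gene that rose in all 3 strains, by 3.24 in Δscd6, 3.92 in Δsbp1 and 4.83 in the wild type on the log2 scale of the authors' deposited table. The SPI1 response differed from the wild type by -1.59 in Δscd6 (adjusted p = 0.0064), the only one of the 6 that passed, and by -0.91 in Δsbp1 (adjusted p = 0.25). CWP2, the abundant partner of CWP1, and CCW12 passed in none of the comparisons.

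Of 11 regulators of the family, 2 rose and 1 fell in Δscd6, 3 rose and 2 fell in Δsbp1, and 2 rose and 1 fell in the wild type. ROX1, the hypoxic repressor, rose in every strain in the authors' deposited table, by 2.83 in Δscd6, 2.35 in Δsbp1 and 2.42 in the wild type. SUT1, a sterol uptake regulator that relieves repression of hypoxic genes, rose in Δsbp1 (0.55, adjusted p = 0.0313) and in the wild type (0.84, adjusted p = 7.5e-04) and was at 0.02 in Δscd6 (0.96) in the authors' deposited table. TUP1, the corepressor subunit, fell in Δscd6 (-1.11, adjusted p = 0.0024) and Δsbp1 (-1.81, adjusted p = 2.6e-07) and was at -0.45 in the wild type (0.27) in the authors' deposited table; with equal totals the Δscd6 fall did not pass (-0.72). The activator UPC2 passed in no comparison of the deposited tables, with azide responses in the authors' deposited table of 0.53 in Δscd6, 0.22 in Δsbp1 and 0.58 in the wild type. That depends on the scaling: with equal totals UPC2 was called up in Δscd6 (0.92, adjusted p = 0.0023) and in the wild type (0.73, adjusted p = 0.0179), and not in Δsbp1 (0.50, adjusted p = 0.10). No regulator's azide response differed from the wild type past the threshold in either deletion strain. Against the wild type, 0 regulators were higher and 3 lower in azide-treated Δsbp1 cells, where 9.29% of all genes were higher and 11.9% lower. By the authors' deposited table these were TUP1 (-1.40), ROX1 (-1.01) and HAP1 (-0.73), and only TUP1 passed with equal totals (-1.27). Untreated Δsbp1 cells and Δscd6 cells in either condition had 0 called. With equal totals 3 were lower in untreated Δscd6 cells, where 1187 of all genes were. With equal totals the azide counts became 5 up and 0 down in Δscd6, 4 up and 1 down in Δsbp1, and 3 up and 0 down in the wild type. At that scaling 2500 of all 6352 genes were up and 527 down in Δscd6. The numbers were 2418 and 1213 in Δsbp1, and 1708 and 972 in the wild type.

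Hypoxic genes outside the wall went both ways. Of 13, 3 rose and 6 fell in Δscd6, 5 rose and 5 fell in Δsbp1, and 5 rose and 2 fell in the wild type. With equal totals 7 rose and 2 fell in Δscd6 and 6 rose and 3 fell in Δsbp1. Of all 6352 genes, 2500 rose and 527 fell in Δscd6 at that scaling, and 2418 rose and 1213 fell in Δsbp1. CYC7, the hypoxic cytochrome c isoform, rose by 4.44 in Δscd6, 4.53 in Δsbp1 and 4.30 in the wild type in the authors' deposited table. AAC3, the anaerobic ADP/ATP carrier, rose by 1.13 in Δscd6, 1.22 in Δsbp1 and 0.99 in the wild type in the authors' deposited table. ERG11, a sterol synthesis enzyme, fell in every strain, at -1.42 in Δscd6, -1.64 in Δsbp1 and -1.29 in the wild type in the authors' deposited table. Of the 13, 2 were higher than the wild type and 4 lower in azide-treated Δsbp1 cells, 2 were higher and 1 lower in untreated Δsbp1 cells, and 0 passed in Δscd6 in either condition. Of all genes, 9.29% were higher and 11.9% lower in azide-treated Δsbp1 cells, and 1.54% higher and 0.441% lower in untreated ones. For Δscd6, 4.31% of all genes were called in azide and 2.52% untreated. CYC7 was higher than the wild type in Δsbp1 in azide (2.10, adjusted p = 6.5e-09) and untreated (1.88, adjusted p = 3.0e-04), by the authors' deposited table. COX5B, a hypoxic cytochrome c oxidase subunit, was higher too, at 1.19 in azide (adjusted p = 1.1e-05) and 1.02 untreated (adjusted p = 0.0017) in the authors' deposited table. ANB1, the hypoxic form of translation factor eIF5A, whose reads may be shared with its close aerobic copy, was lower than the wild type in Δsbp1 in azide (-1.03, adjusted p = 5.3e-04) and untreated (-1.48, adjusted p = 1.2e-05), by the authors' deposited table. AUS1, next to TIR2, fell to log2 changes of -0.82 in Δscd6 and -1.11 in Δsbp1, and stood at -0.21 in the wild type (the authors' deposited table); with equal totals the Δscd6 fall did not pass (-0.42). Its difference from the wild type response did not pass in Δscd6 (-0.60, adjusted p = 0.27) or Δsbp1 (-0.90, adjusted p = 0.11).

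Of 6 other cold-shock genes 0 rose with azide in any strain, while 2 fell in Δscd6, 3 in Δsbp1 and 2 in the wild type; with equal totals 1 rose in Δsbp1. NSR1, a nucleolar cold-shock protein, was at -2.15 in Δscd6, -5.19 in Δsbp1 and -2.71 in the wild type in the authors' deposited table, all past the threshold. The NSR1 response was lower in Δsbp1 than in the wild type, by a difference of -2.48 (adjusted p = 3.9e-08), and differed by 0.56 in Δscd6 (adjusted p = 0.34). OLE1, the fatty acid desaturase also counted among the hypoxic genes, was at -1.15 in Δscd6, -2.04 in Δsbp1 and -0.88 in the wild type in the authors' deposited table, again all past it. Its response was also lower in Δsbp1 than in the wild type (-1.16, adjusted p = 0.0444), and differed by -0.27 in Δscd6 (adjusted p = 0.72).

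Most genes that mannosylate such proteins fell with azide in every strain. Of 9 protein O-mannosylation genes 7 fell in Δscd6, 8 in Δsbp1 and 8 in the wild type and 0 rose, with a median of -0.94 in Δscd6, -1.26 in Δsbp1 and -0.76 in the wild type, where the median of all genes was about -0.02. PMT2, a subunit of the enzyme that starts O-mannose chains, was at -1.46 in Δscd6, -2.01 in Δsbp1 and -0.86 in the wild type in the authors' deposited table. MNN1, an outer-chain mannosyltransferase, was at -1.48 in Δscd6, -2.70 in Δsbp1 and -2.19 in the wild type in the authors' deposited table. With equal totals 6 of the 9 fell in Δscd6 and 7 each in Δsbp1 and the wild type. At the deposited scaling 20.4% of all genes fell in Δscd6, 27.4% in Δsbp1 and 20.6% in the wild type. Of 12 genes of GPI anchoring and wall attachment 9 fell and 0 rose in Δscd6, 8 fell and 1 rose in Δsbp1, and 5 fell and 2 rose in the wild type; with equal totals the Δscd6 count was 4. DFG5, which links GPI proteins to wall glucan, was at -1.37 in Δscd6, -2.02 in Δsbp1 and -1.43 in the wild type in the authors' deposited table. Among them were 2 yapsins, GPI-anchored proteases. YPS3 fell in Δscd6 (-0.84, adjusted p = 0.022) and rose in the wild type (0.86, adjusted p = 0.019) in the authors' deposited table, a difference of -1.70 (adjusted p = 0.0092). With equal totals the Δscd6 fall of YPS3 did not pass (-0.45). YPS1 was at -0.29 in Δscd6 (adjusted p = 0.28) and rose in the wild type (0.88, adjusted p = 2.2e-04) in the authors' deposited table, a difference of -1.17 (adjusted p = 0.0077).

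The genes whose profile over the 6 groups lay nearest to a member's were found by the root mean square (RMS) difference of centred log2 group means, among 5710 genes with a mean normalised count of at least 100. Nearest to TIR4 were YCR049C (RMS 0.27) and YCR087C-A (0.28), and YCR087C-A was also the second nearest to TIR1 (0.38) after DBP2 (0.36). TIR3 had the closest neighbour of any member, MIG2 at an RMS of 0.05, followed by GID7 at 0.15. TIR3 also had the narrowest range of levels among the members, 2.33-fold, and this measure gives smaller values for genes that vary little. TIR2 lay near ATG18 (0.13) and SUB1 (0.14), and TIP1 near YDL186W (0.19) and FRE7 (0.22). DAN1, whose level spanned 53.7-fold, lay farther from every gene searched on this measure of size. Its nearest were ANB1 at 1.23 and TAR1, which lies within the repeated ribosomal DNA, at 1.32. DAN1 itself had a mean normalised count of 48.2, below the minimum of 100, so genes as rare as DAN1 were not searched. The shape of the ANB1 profile was close to that of DAN1 (Pearson r 0.91 over the 6 group means, as a description). These distances describe 6 group means, share the libraries of all genes and carry no test.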

How the data were processed

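Per the labels' protocols, total RNA was taken by hot-phenol extraction and libraries were prepared with a NEB kit for Illumina. The submitters' processing notes list STAR (version 2), Picard, featureCounts and edgeR but give no role for any of them. The genome build, annotation and strand setting: not given in the sources used here. Groups were taken from the sample titles. The mean normalised count deposited by the authors is a signal on a linear scale, identical in all 7 tables. The authors' fold change is a linear ratio and the authors' log2 column is its log2 value, azide over untreated or deletion over wild type. Recomputing the Benjamini-Hochberg adjustment over 6352 genes from the authors' p-value gave their adjusted values to within 4.6e-08.

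Values per library were not analysed here, so calls rest on the authors' p-values, as the design foresaw. A group mean was rebuilt from the mean count and the fold changes, taking these as ratios of group means. Each SE was derived by dividing the log2 change by the two-sided normal quantile that belongs to its p-value, for changes of at least 0.01; that the authors' test was a normal one is an assumption. The SE of a difference of azide responses used the larger variance of the route through both azide responses and the route through both comparisons with the wild type; Δsbp1 minus Δscd6 used the azide responses alone. For Δsbp1 against Δscd6 the variances of both comparisons with the wild type were added, which overstates the SE; that comparison was added after the data were seen. Differences were tested two-sided against a normal distribution, adjusted over all genes. Of the systematic IDs, 5764 of 6352 matched RefSeq R64, which supplied positions and sequences. Members and gene lists were chosen with earlier results of these data known. Genes are named as members, from the lists, as deleted genes, or as the 2 nearest profiles of each member. Alternatives were a threshold of 0.01, a minimum mean count of 100, a 2-fold minimum, equal totals, centring on the median gene and another variance. Python 3.11.15, pandas 2.3.3, numpy 2.4.6, scipy 1.17.1, Biopython 1.88 and matplotlib 3.10.9 were used.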

Additional observations from a re-analysis of the deposited data

Results flagged for a closer look

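The azide response differed between strains, by a test of the difference itself, for TIR4 in both deletion strains and for DAN1 between the deletion strains. For TIR4 the log2 difference from the wild type was -2.80 in Δscd6 and -1.89 in Δsbp1. For DAN1 the Δsbp1 response minus the Δscd6 response was 2.79, where the untreated Δsbp1 level was 2.49 normalised counts. The DAN1 call lay close to the threshold (adjusted p = 0.0478 by the difference test on implied SEs). It was lost at a threshold of 0.01 and with equal totals.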

How the results depend on the processing

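No paired analysis was possible because the tables hold comparisons of groups and no columns that carry a replicate number; leaving out replicates was not run for the same reason. No member reversed under an alternative, among the calls made. With an adjusted p under 0.01 the number of members called became 1 (from 2) for azide in Δscd6, 1 (from 3) for azide in Δsbp1, 1 (from 2) for untreated Δscd6 against the wild type, 0 (from 1) for the response of Δsbp1 minus Δscd6, and 1 (from 2) for Δsbp1 against Δscd6 in azide and untreated. With a mean count of at least 100, which leaves out DAN1, it became 1 (from 2) for Δscd6 against the wild type in azide and untreated, 0 (from 1) for the response of Δsbp1 minus Δscd6, and 1 (from 2) for Δsbp1 against Δscd6 in azide and untreated. With equal totals it became 1 (from 2) for azide in Δscd6, 0 (from 1) for the response of Δsbp1 minus Δscd6, and 1 (from 2) for Δsbp1 against Δscd6 in azide and untreated. The cause of the equal-totals losses was not tested. The other 42 counts stayed within 1.5 times. Of the single calls, the Δsbp1 fall of TIR4 was lost under the most settings: at 0.01, at 2-fold, with equal totals (-0.42) and centred on the median gene (-0.68). The TIR4 differences of -2.80 and -1.89 passed under all settings run. The alternatives for Δsbp1 against Δscd6 and the equal-totals differences were chosen after seeing the data. Depth is unknown, which limits DAN1 most.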
